A study of Homo sapiens with 18 samples.

Results

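The genes described here belong to the amino acid response, the set of transcripts that the transcription factor ATF4 is known to raise when amino acids run short. The list held 36 genes, chosen by name from what is known of the pathway but with earlier results of these data known. Counts over the list are therefore descriptions. The genes were matched to the array by gene symbol. A probe was found for 34 of them, out of 20046 genes on the array, and 33 passed the filter on dim probes, out of 15364 genes. GPT2 and CARS1 were not analysed here, and CHAC1 had a probe that did not pass the filter. By role the list was divided into regulators, growth and redox effectors, amino acid transporters, amino acid enzymes and tRNA synthetases.

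Transcripts were measured on Illumina bead arrays with total RNA of Hec-1A and RL95-2, established human cell lines grown from endometrial carcinomas. Each line was exposed to control IgG, to PDGF-AA (written PDGFAA in the labels), or to PDGFAA+3G3-1, called PDGF-AA + 3G3 below, with 3 arrays in each of the 6 groups. PDGF-AA is a ligand of the receptor PDGFRA, whose blockade the series title names, and 3G3 is an antibody to that receptor. An antibody is named for the first and the last of these treatments and not for PDGF-AA alone, so the ligand and the absence of control IgG cannot be told apart in that comparison. The sources used here give no dose, duration or culture medium. Nothing in them ties the 3 arrays of a group to separate cultures, so p-values measure only the spread between these samples.

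When an uncharged tRNA accumulates, the kinase GCN2 phosphorylates the translation factor eIF2, general translation slows, and the ATF4 mRNA is translated more. ATF4 protein then binds, with a C/EBP partner, a composite sequence called the C/EBP-ATF response element or amino acid response element, and raises genes for amino acid uptake, synthesis and tRNA charging. ATF4 protein is thus set largely by translation, and the arrays measured mRNA only. In tumour cells the pathway is known for supplying amino acids during growth, and it is linked to mTORC1, the kinase complex that senses amino acid supply.

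Values are normalized log2 signals, and the median of every array was 6.62. A probe near that median was close to the dim end of the array, where differences are compressed, and levels of different probes are not comparable. Before normalization the 75th percentile of signal ranged from 122.7 to 185.9 between arrays. The brightest was Hec-1A control IgG replicate 1 and the dimmest was Hec-1A PDGF-AA replicate 1. Their correlation with each other over all probes, 0.952, was the lowest between arrays of that line. The number of arrays limits the precision, and the median 95% half-width of a log2 difference between 2 groups was 0.155. This is a median, and genes of the list could be much less precise. For IARS1 and SLC38A2 under PDGF-AA against control IgG in Hec-1A, the SE alone was larger than that (values below). The epithelial markers EPCAM, CDH1, KRT8, KRT18 and KRT19 and the Müllerian marker PAX8 were above the array median in all 6 groups. The hormone receptors ESR1 and PGR, often used as endometrial markers, were below the median in all 6, with group means from 6.41 to 6.57. Of 11 markers of other cell types, PTPRC, CD3E, DCN, LUM and VWF were also below it in all 6 groups. COL1A1 was above it in all 6 (6.66 to 6.72 in Hec-1A, 7.21 to 7.23 in RL95-2) and CDH5 in the 3 RL95-2 groups (7.13 to 7.28). COL1A2 (in 3 Hec-1A groups), PECAM1 and CD14 (in 2 and 1 Hec-1A groups) and COL3A1 (in 2 RL95-2 groups) exceeded it narrowly, with means of at most 6.71.

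The response element was looked for in the RefSeq promoter table (build GRCh38.p14), from 250 bases before to 50 bases after each transcript start. The table held 32 of the 36 genes and lacked NUPR1, SLC7A11, GPT2 and PYCR1. The motif TGATGNAA, read on both strands, with TTNCATCA as its reverse complement, was found in 15 of the 32 genes (46.9%) and in 4.46% of all 27305 genes in the table. Its stricter form TGATGCAA was found in 10 of the 32 (31.25%) and in 1.08% of all genes. A gene counted if any of its promoters matched. The 32 genes had 55 promoters and all 27305 genes had 35116, so the list had more promoters per gene. Of all promoters, 3.62% held TGATGNAA. The palindrome TGACGTCA, the cyclic AMP response element that other ATF and CREB factors bind, was found in 0 of the 32 and in 2.25% of all genes, and it shares no full match with the other motifs. Several of these genes entered the literature as ATF4 targets because of this element, so the share is a description of the list and a match is not a site shown to be used.

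The element is shown for 12 genes because its place and orientation differ between them, with the motif in capitals and the strand of the gene read 5′ to 3′. ASNS, the asparagine synthetase gene, is one of those in which the element was worked out. The motif begins at base -68 from the start, in sense orientation, on chromosome 7.
ASNS (chr7:97872443-97872502, minus strand): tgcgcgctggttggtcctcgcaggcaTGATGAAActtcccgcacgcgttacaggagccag
In the transporter genes SLC1A5, SLC38A1 and SLC7A1 the motif is in sense orientation and begins at bases -97, -4 and 8. In SLC1A4 it is antisense, in the form TTNCATCA, and begins at base -7.
SLC1A5 (chr19:46784878-46784937, minus strand): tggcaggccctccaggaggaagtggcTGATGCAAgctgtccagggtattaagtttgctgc
SLC38A1 (chr12:46266487-46266546, minus strand): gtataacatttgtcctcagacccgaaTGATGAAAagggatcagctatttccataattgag
SLC7A1 (chr13:29595659-29595707, minus strand): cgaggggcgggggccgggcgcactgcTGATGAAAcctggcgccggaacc
SLC1A4 (chr2:64989366-64989425, plus strand): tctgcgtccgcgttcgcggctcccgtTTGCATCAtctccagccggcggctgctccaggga
In the bZIP regulators CEBPG and JDP2 the motif is in sense orientation and begins at bases -42 and -16.
CEBPG (chr19:33374045-33374104, plus strand): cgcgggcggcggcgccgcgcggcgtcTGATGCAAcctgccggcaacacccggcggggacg
JDP2 (chr14:75427980-75428039, plus strand): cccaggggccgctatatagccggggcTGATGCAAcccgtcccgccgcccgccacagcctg
In the tRNA synthetase genes AARS1, GARS1, IARS1 and MARS1 it is antisense and begins at bases -187, -33, -13 and -4. In NARS1 it is in sense orientation and begins at base 15.
AARS1 (chr16:70289660-70289719, minus strand): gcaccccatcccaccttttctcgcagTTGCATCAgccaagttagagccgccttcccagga
GARS1 (chr7:30594819-30594878, plus strand): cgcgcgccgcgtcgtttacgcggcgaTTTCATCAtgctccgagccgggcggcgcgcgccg
IARS1 (chr9:92293677-92293736, minus strand): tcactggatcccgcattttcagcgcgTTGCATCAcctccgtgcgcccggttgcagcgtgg
MARS1 (chr12:57488038-57488097, plus strand): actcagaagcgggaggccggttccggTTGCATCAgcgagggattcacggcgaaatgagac
NARS1 (chr18:57621807-57621848, minus strand): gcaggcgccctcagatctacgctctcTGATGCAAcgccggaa

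Matches were also found for SLC3A2 (base 38), CHAC1 (base -209) and CARS1 (base -2). By role the motif was present in 6 of 9 tRNA synthetases, 5 of 8 transporters, 2 of 7 regulators, 1 of 4 enzymes and 1 of 4 effectors. In 8 of the 15 genes it began within 20 bases of the start. The transporter SLC7A5, whose transcript differed most between the lines, had no match for any of the motifs in its window. The 250 bases before its start are shown beside those of ASNS for comparison.
ASNS (chr7:97872409-97872658, minus strand): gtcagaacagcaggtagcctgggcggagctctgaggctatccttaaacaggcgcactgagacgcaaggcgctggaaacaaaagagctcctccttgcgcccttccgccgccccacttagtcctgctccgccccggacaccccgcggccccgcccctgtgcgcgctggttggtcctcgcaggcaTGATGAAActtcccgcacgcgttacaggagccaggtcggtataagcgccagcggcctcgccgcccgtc
SLC7A5 (chr16:87869508-87869757, minus strand): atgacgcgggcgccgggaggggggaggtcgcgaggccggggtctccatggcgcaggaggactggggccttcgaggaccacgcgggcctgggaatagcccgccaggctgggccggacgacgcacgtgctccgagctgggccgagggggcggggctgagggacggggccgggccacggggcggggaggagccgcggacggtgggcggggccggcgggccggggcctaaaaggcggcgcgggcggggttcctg
No match says only that these letters are not in this window. G and C made up 66% of the ASNS stretch and 79.6% of the SLC7A5 stretch.

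The largest differences in these genes lay between the cell lines. Averaged over the 3 treatments, 30 of the 33 genes differed (limma, Benjamini-Hochberg adjusted over all 32216 probes tested, threshold 0.05), 22 of them lower in Hec-1A and 8 higher. Over all genes tested the share was 52.8%, with 27.0% higher and 25.9% lower in Hec-1A. The median log2 fold change of the 33 genes was -0.30, against 0.01 over all genes tested. At least a 2-fold difference was reached by 9 of the 33 (27.3%), of which GARS1 was higher, and by 8.54% of all genes. Most of the list was brightly expressed, and bright probes were called more often: of genes above the array median on all 18 arrays, 66.5% were called, and 27 of the 30 list members among them.

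Treatment by treatment, 24 of the 33 genes differed between the lines under control IgG, 6 higher and 18 lower in Hec-1A (46.0% of all genes, divided almost evenly between the directions here and under the other treatments). Under PDGF-AA 27 differed, 7 higher and 20 lower (36.8% of all genes). Under PDGF-AA + 3G3 25 differed, 5 higher and 20 lower (37.3% of all genes). Without Hec-1A control IgG replicate 1 the counts were 5 higher and 17 lower under control IgG, and 7 higher and 21 lower on average. In that fit 11 and 9 of the 33 genes had positive differences, against 50.51% and 51.59% of all genes. The same 17 genes differed in the same direction in each of the 3 treatments (51.5%, against 27.1% of all genes). Those lower in Hec-1A were ATF4, CEBPB, JDP2, NUPR1, DDIT4, SLC7A1, SLC7A5, SLC3A2, SLC1A4, SLC6A9, PYCR1, WARS1, EPRS1 and MARS1. ATF5, GARS1 and SARS1 were higher. The averaged values below are from the same model, and groups are said not to overlap when every Hec-1A array lay on one side of every RL95-2 array. That held for 18 of the 33 genes over all 9 arrays a line, and for 27.6% of all genes.

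**Figure D1:**
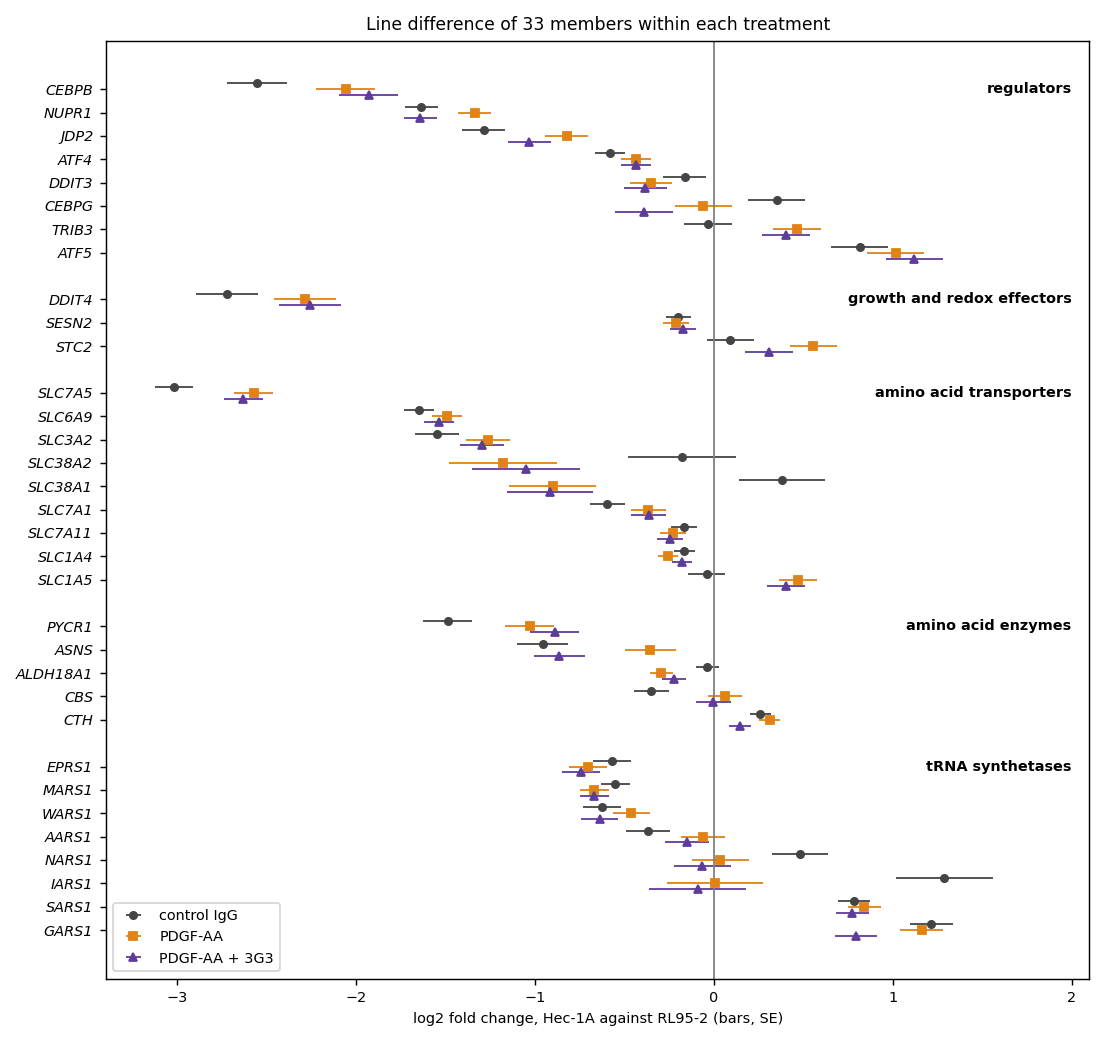
Log2 fold change of Hec-1A against RL95-2 (x axis) for the 33 genes tested (y axis, ordered by role and by the averaged difference), with 1 symbol per treatment and bars for the SE. SLC7A5, DDIT4 and CEBPB lie farthest to the left, and in SLC38A1, SLC38A2 and IARS1 the control IgG symbol lies to the right of the other treatments.

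Of the 8 regulators, 5 were lower in Hec-1A and 2 were higher. ATF4 mRNA read 12.69, 12.69 and 12.63 in Hec-1A under control IgG and 13.25, 13.13 and 13.37 in RL95-2. Over the 9 arrays of each line it ran from 12.56 to 12.75 (median 12.66) and from 12.90 to 13.37 (median 13.13), so the lines did not overlap. The averaged difference was -0.48 (SE 0.05, limma adjusted p = 3.72e-07), or 1.40-fold lower in Hec-1A. The array carries other ATF4 probes that did not give the same answer. ILMN_2358457 was 0.87 lower in Hec-1A on the log2 scale (log2 fold change -0.87, limma adjusted p = 6.09e-07), while ILMN_1783394, much nearer the array median, was 0.11 higher (limma adjusted p = 0.0493).

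CEBPB, a bZIP factor that pairs with ATF4 and is itself raised by it, differed most among the regulators. It read 9.29, 10.07 and 9.99 in Hec-1A under control IgG and 12.27, 12.29 and 12.46 in RL95-2, and under PDGF-AA 10.26, 9.90 and 10.25 against 11.99, 12.25 and 12.35. With 3G3 added it read 10.19, 10.31 and 10.09 against 12.28, 12.03 and 12.07. All 9 Hec-1A arrays lay below all 9 RL95-2 arrays, and the averaged difference was -2.18 (SE 0.10, limma adjusted p = 8.63e-12), 4.54-fold. CEBPG, the other C/EBP partner of ATF4 on the list, overlapped between the lines and was not called (-0.03, SE 0.09, limma adjusted p = 0.824).

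NUPR1, a small stress-induced chromatin protein, was near the array median in Hec-1A and well above it in RL95-2. Its Hec-1A arrays ran from 6.52 to 6.77 (median 6.67) and its RL95-2 arrays from 7.85 to 8.52 (median 8.26). The averaged difference was -1.54 (SE 0.05, limma adjusted p = 3.53e-13). Because the Hec-1A mean under PDGF-AA was below the array median, the fold there is a bound, at least 2.44-fold lower. JDP2, a Jun partner that represses transcription, was also lower in every Hec-1A array (7.13 to 7.66, against 8.19 to 8.72), by 1.05 on the log2 scale (log2 fold change -1.05, SE 0.07).

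ATF5, a relative of ATF4 whose translation responds to eIF2 phosphorylation as well, went the other way. It read 9.41, 9.95 and 9.88 in Hec-1A under control IgG and 8.87, 9.12 and 8.81 in RL95-2, and over all treatments it ran from 9.41 to 10.37 and from 8.65 to 9.28. The lines did not overlap, and the averaged difference was 0.98 (SE 0.09, limma adjusted p = 1.43e-07), 1.98-fold higher in Hec-1A. TRIB3, a pseudokinase that ATF4 raises and that feeds back on it, was 0.28 higher (SE 0.08), with overlapping arrays. DDIT3, which encodes the pro-apoptotic factor CHOP, was dim in both lines (6.68 to 7.22 and 7.10 to 7.59) and 0.30 lower in Hec-1A (log2 fold change -0.30, SE 0.07).

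**Figure D2:**
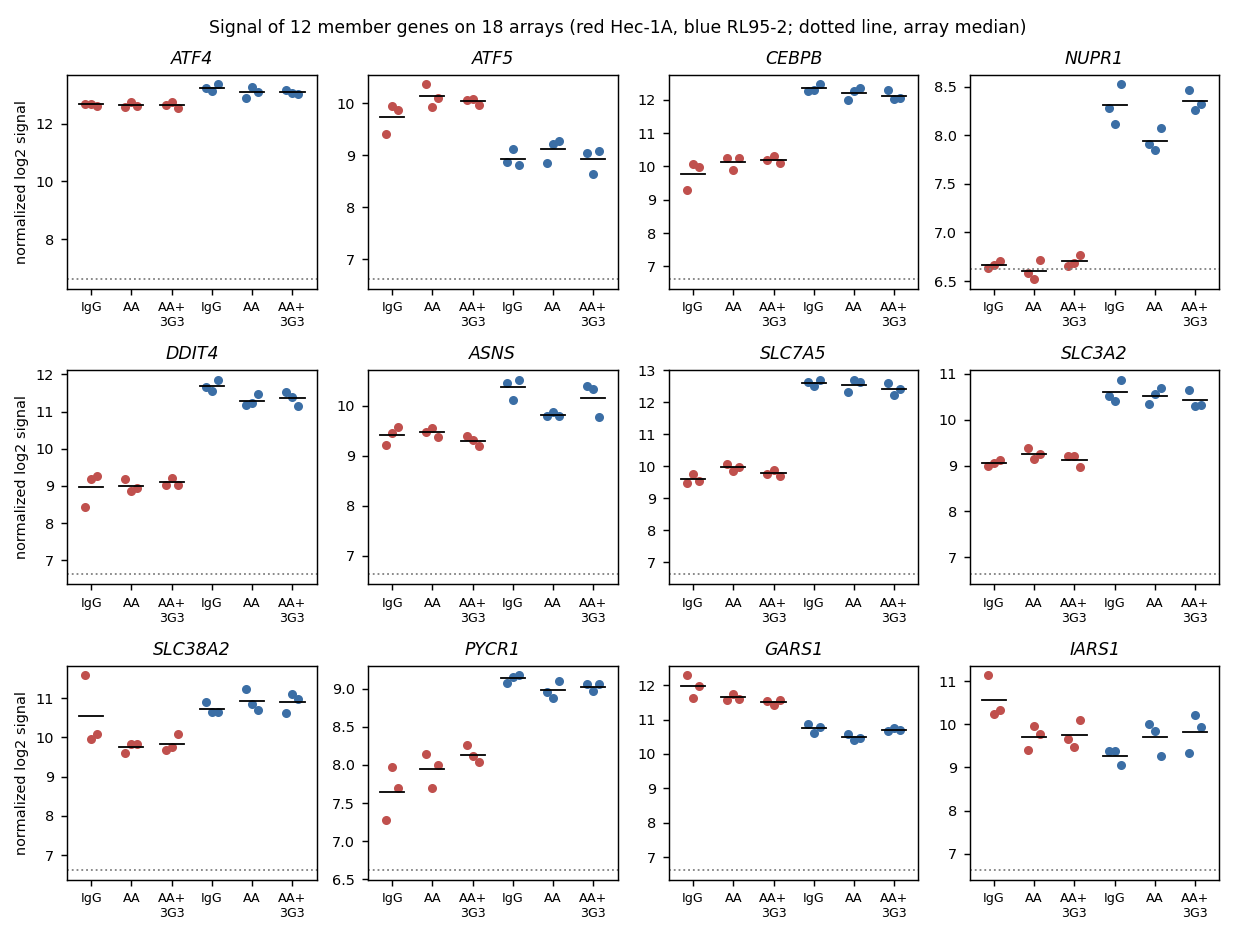
Normalized log2 signal (y axis) of 12 genes in the 6 groups (x axis: control IgG, PDGF-AA, PDGF-AA + 3G3, first Hec-1A in red and then RL95-2 in blue), with 1 point per array, black bars for group means and a dotted line at the array median of 6.62. CEBPB, DDIT4 and SLC7A5 separate by line under every treatment, ATF5 and GARS1 separate in the opposite direction, and 1 Hec-1A control IgG array stands above its group in SLC38A2 (11.58) and IARS1 (11.14).

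The effectors included the second-largest difference of the list. DDIT4, also called REDD1, an inhibitor of mTORC1, read 8.45, 9.19 and 9.27 in Hec-1A under control IgG and 11.67, 11.56 and 11.85 in RL95-2. Over all treatments it ran from 8.45 to 9.27 in Hec-1A and from 11.15 to 11.85 in RL95-2, with no overlap. The averaged difference was -2.42 (SE 0.10, limma adjusted p = 4.07e-12), 5.36-fold. SESN2, a leucine sensor that also restrains mTORC1, was at or below the array median in all 3 Hec-1A groups (means 6.58 to 6.60) and just above it in RL95-2 (6.76 to 6.80), and its fold was at least 1.10. STC2, a secreted glycoprotein, was 0.32 higher in Hec-1A (SE 0.08, limma adjusted p = 0.00267), with arrays that overlapped. CHAC1, an enzyme that breaks down glutathione, read between 6.47 and 6.70 on every array and so gave no measurable difference.

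Among the 9 transporters, 8 were lower in Hec-1A and 1 was higher. SLC7A5 encodes the light chain of the leucine-importing heterodimer LAT1, and SLC3A2 encodes its heavy chain. SLC7A5 read 9.47, 9.76 and 9.56 in Hec-1A under control IgG, 10.09, 9.86 and 9.99 under PDGF-AA, and 9.77, 9.89 and 9.71 with 3G3 added. The RL95-2 arrays read 12.63, 12.51 and 12.71, then 12.34, 12.70 and 12.63, then 12.60, 12.24 and 12.43. All 9 were above all 9 of Hec-1A, and the averaged difference was -2.74 (SE 0.06, limma adjusted p = 1.72e-15), 6.69-fold, with the smallest p of the list.

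SLC3A2 was lower in Hec-1A as well. It read 8.98, 9.05 and 9.11 in Hec-1A under control IgG and 10.52, 10.40 and 10.87 in RL95-2, and over all treatments 8.97 to 9.39 against 10.30 to 10.87. The averaged difference was -1.37 (SE 0.07, limma adjusted p = 9.13e-11), 2.59-fold, and its second probe, ILMN_1679041, gave -1.70. SLC7A11, the cystine importer that uses the same heavy chain, was dim in both lines (6.69 to 6.86 and 6.81 to 7.08) and differed by -0.21 (SE 0.04, limma adjusted p = 0.000459).

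SLC6A9, a glycine transporter, was near the array median in Hec-1A (6.63 to 6.85) and at 8.13 to 8.62 in RL95-2, a difference of -1.56 (SE 0.05, limma adjusted p = 9.16e-14). This rested on the brightest of its 3 probes: ILMN_1754262 gave -0.10 and ILMN_2252701 gave -0.0046, both at the array median in both lines, and the mean of the probes gave -0.56. SLC7A1, the arginine and lysine importer, was lower in every Hec-1A array (10.48 to 10.83, against 10.91 to 11.30), by 1.36-fold. SLC1A4, which carries alanine, serine and cysteine, was at the array median in all 3 Hec-1A groups, with a fold of at least 1.11. SLC1A5, a glutamine carrier, was the member higher in Hec-1A (0.28, SE 0.06, limma adjusted p = 0.00121), and its arrays overlapped between the lines.

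SLC38A1 and SLC38A2, sodium-coupled importers of glutamine and other small neutral amino acids, were lower in Hec-1A after averaging (-0.48, SE 0.14, limma adjusted p = 0.0104, and -0.80, SE 0.17, limma adjusted p = 0.00117), but not in every array. SLC38A2 read 11.58, 9.97 and 10.09 in Hec-1A under control IgG and 10.90, 10.63 and 10.64 in RL95-2, so that replicate 1 lay above all RL95-2 arrays while replicates 2 and 3 lay below them. Under control IgG the difference was -0.18 (limma adjusted p = 0.727) with that array and -0.70 (limma adjusted p = 0.00282) without it. Under PDGF-AA, where the Hec-1A arrays read 9.60, 9.84 and 9.82 against 11.24, 10.86 and 10.71, it was -1.18 (limma adjusted p = 0.007).

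Of the 5 enzymes tested, 3 were lower in Hec-1A and 1 was higher. ASNS, which makes asparagine from aspartate, read 9.21, 9.45 and 9.58 in Hec-1A under control IgG and 10.46, 10.12 and 10.52 in RL95-2. No Hec-1A array (9.19 to 9.58) reached the lowest RL95-2 array (9.77), and the averaged difference was -0.73 (SE 0.08, limma adjusted p = 1.46e-06), 1.65-fold. Its second probe, ILMN_2398107, gave -0.47. By treatment it differed by -0.96 under control IgG, by -0.36 under PDGF-AA, where it was not called (limma adjusted p = 0.0796), and by -0.86 under PDGF-AA + 3G3.

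PYCR1, the last enzyme of proline synthesis in mitochondria, ran from 7.28 to 8.26 in Hec-1A and from 8.88 to 9.17 in RL95-2, without overlap. It differed by -1.14 (SE 0.08, limma adjusted p = 3.41e-09), 2.20-fold, and its 2 dimmer probes gave -0.19 and -0.30. ALDH18A1, which starts the same route from glutamate, differed by -0.18 (SE 0.04, limma adjusted p = 0.000628), and the arrays overlapped. Of the transsulfuration enzymes, which make cysteine from homocysteine, CTH was 0.24 higher in Hec-1A (SE 0.03, limma adjusted p = 1.88e-05) without overlap, and CBS was not called (-0.10, SE 0.06, limma adjusted p = 0.195). The dimmer CTH probes, ILMN_1777060 and ILMN_2305116, gave 0.07 and 0.06 and were not called.

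The tRNA synthetases charge tRNAs with their amino acids, and these genes divided between the lines. Of the 8 tested, 4 were lower and 3 higher in Hec-1A, with a median of -0.02. GARS1, for glycine, read 12.29, 11.64 and 11.99 in Hec-1A under control IgG and 10.86, 10.62 and 10.79 in RL95-2, and all 9 Hec-1A arrays (11.43 to 12.29) lay above the 9 of RL95-2 (10.40 to 10.86). The averaged difference was 1.06 (SE 0.07, limma adjusted p = 1.37e-09), 2.08-fold higher. SARS1, for serine, was 0.80 higher (SE 0.05, limma adjusted p = 1.95e-09), at 9.24 to 9.51 against 8.43 to 8.79.

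EPRS1, for glutamate and proline, MARS1, for methionine, and WARS1, for tryptophan, were lower in every Hec-1A array, by -0.67 (SE 0.06), -0.63 (SE 0.05) and -0.58 (SE 0.06) on the log2 scale. The WARS1 arrays ran from 9.09 to 9.48 in Hec-1A and from 9.60 to 10.04 in RL95-2, and its second probe, ILMN_1727271, gave -0.68. AARS1, for alanine, and IARS1, for isoleucine, passed the test narrowly (-0.19, limma adjusted p = 0.0386, and 0.40, limma adjusted p = 0.0497), and both were lost when Hec-1A control IgG replicate 1 was left out (-0.17, limma adjusted p = 0.0665, and 0.31, limma adjusted p = 0.0814). Leaving out any of 10 other arrays also ended the AARS1 call, and any of 11 others the IARS1 call. The second IARS1 probe, ILMN_1801639, was dimmer, with means of 6.86 in Hec-1A and 6.65 in RL95-2. It was 0.21 higher in Hec-1A (limma adjusted p = 0.000287). NARS1, for asparagine, was not called on average (0.15, limma adjusted p = 0.22). It was called under control IgG (0.48, limma adjusted p = 0.0261), where Hec-1A read 12.54, 11.68 and 12.06, but not without replicate 1 (0.26, limma adjusted p = 0.136).

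The line differences were also read by whether a gene had the response element in its promoter window. Over all genes tested the median log2 fold change was 0.01, with 25.9% called lower and 27.0% called higher in Hec-1A. With the motif, 13 tested genes had a median of -0.20, 8 called lower and 3 called higher. Without it, 17 genes had a median of -0.30, 11 called lower and 5 called higher. SLC7A5, DDIT4 and CEBPB, the genes with the largest differences, were among these 17. Where the element began within 20 bases of the start, JDP2 (-1.05), MARS1 (-0.63), SLC38A1 (-0.48), SLC7A1 (-0.44) and SLC1A4 (-0.20) were lower in Hec-1A. IARS1 (0.40) was higher, a call that was lost without Hec-1A control IgG replicate 1, and NARS1 (0.15) was not called. The difference between these sets of genes was not tested.

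**Figure D3:**
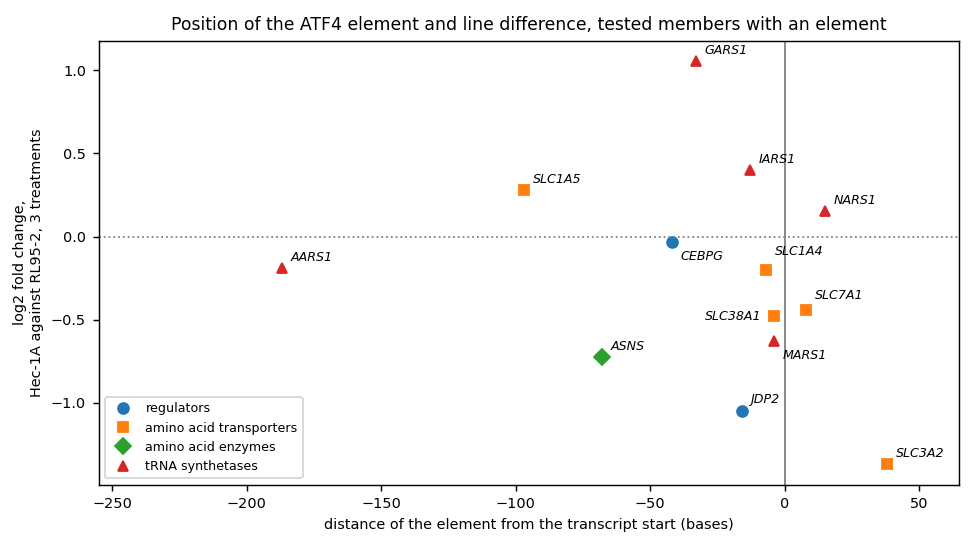
Averaged log2 fold change of Hec-1A against RL95-2 (y axis) for the 13 tested genes with a TGATGNAA match, by the distance in bases of its first base from the transcript start (x axis), with 1 symbol per role. SLC3A2 (-1.37) and JDP2 (-1.05) lie lowest, and GARS1 (1.06) lies highest.

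No gene of the list was called in any comparison of treatments within a line, where hardly any gene on the array was called. For PDGF-AA against control IgG in Hec-1A 0 of 33 members passed limma's adjusted threshold (0% of all genes), while 15 had an unadjusted p under 0.05, against 26.1% of all genes. In RL95-2 the same comparison gave 0 of 33 (0.00651% of all genes), with 9 at an unadjusted p under 0.05, against 6.29%. For 3G3 added to PDGF-AA, 0 of 33 passed in Hec-1A (0% of all genes; 1 unadjusted, against 4.26%) and 0 of 33 in RL95-2 (0.00651% of all genes; 3 unadjusted, against 3.55%). PDGF-AA + 3G3 against control IgG also gave 0 of 33 in Hec-1A (0.00651% of all genes; 13 unadjusted, against 25.4%) and in RL95-2 (0% of all genes; 3 unadjusted, against 11.4%). These comparisons share arrays with each other.

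In RL95-2 under PDGF-AA, 23 of the 33 genes had a lower mean than under control IgG. A higher mean was found for 10, SLC38A1 and IARS1 among them. The median difference was -0.09, against -0.01 over all genes. ASNS had the largest negative value. Its control IgG arrays read 10.46, 10.12 and 10.52, its PDGF-AA arrays 9.79, 9.88 and 9.80, and its arrays with 3G3 added 10.39, 10.33 and 9.77. All PDGF-AA arrays were below all control IgG arrays, and with 3G3 added 2 of 3 lay within the range of the controls. Both comparisons use the same PDGF-AA arrays, so low readings there push the first difference down and the second up. The differences were -0.55 (SE 0.14, limma adjusted p = 0.569) and 0.34 (SE 0.14, limma adjusted p = 1), neither past the threshold.

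NUPR1 had the same order in RL95-2. It read 8.28, 8.12 and 8.52 under control IgG, 7.91, 7.85 and 8.08 under PDGF-AA and 8.46, 8.26 and 8.32 with 3G3 added. The PDGF-AA arrays were below all the others, with differences of -0.36 (SE 0.09, limma adjusted p = 0.569) and 0.40 (SE 0.09, limma adjusted p = 1). DDIT4 (-0.41), STC2 (-0.38) and CBS (-0.30) had separate PDGF-AA and control IgG arrays as well, but gave 0.07, 0.11 and 0.01 when 3G3 was added. In all, the groups did not overlap for 10 of the 33 genes under PDGF-AA (30.3%, against 15.3% of all genes) and for 3 when 3G3 was added (8.36% of all genes).

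In Hec-1A the groups did not overlap for 9 of the 33 genes under PDGF-AA (21.5% of all genes), and several values moved with a control array. IARS1 (-0.85, SE 0.27), SLC38A2 (-0.79, SE 0.30) and SLC38A1 (-0.74, SE 0.24) had the largest negative differences from control IgG, with limma adjusted p-values of 0.123, 0.162 and 0.127. Control IgG replicate 1 was high for each of them: IARS1 read 11.14 there and 10.23 and 10.33 in the other controls, and SLC38A1 read 11.65 against 10.49 and 10.92. Without that array the differences were -0.57, -0.27 and -0.42 (limma adjusted p = 0.507, 0.63 and 0.542).

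Among the genes with no overlap, SLC7A5 had the largest positive difference. Its control IgG arrays read 9.47, 9.76 and 9.56 and its PDGF-AA arrays 10.09, 9.86 and 9.99, a difference of 0.38 (SE 0.11, limma adjusted p = 0.113), and 0.32 without replicate 1 (limma adjusted p = 0.416). ATF4 itself differed by -0.02 in Hec-1A (SE 0.08) and by -0.16 in RL95-2 (SE 0.08, limma adjusted p = 0.875).

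Leaving out control IgG replicate 2 instead, which leaves replicate 1 as 1 of 2 controls, gave 2 genes higher and 8 lower under PDGF-AA in Hec-1A, with 11.1% of all probes called. The higher genes were SLC7A5 (0.47) and PYCR1 (0.46), and the lower ones included SLC38A2 (-1.08), IARS1 (-1.02), NARS1 (-0.62), CEBPG (-0.56) and GARS1 (-0.50).

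**Figure D4:**
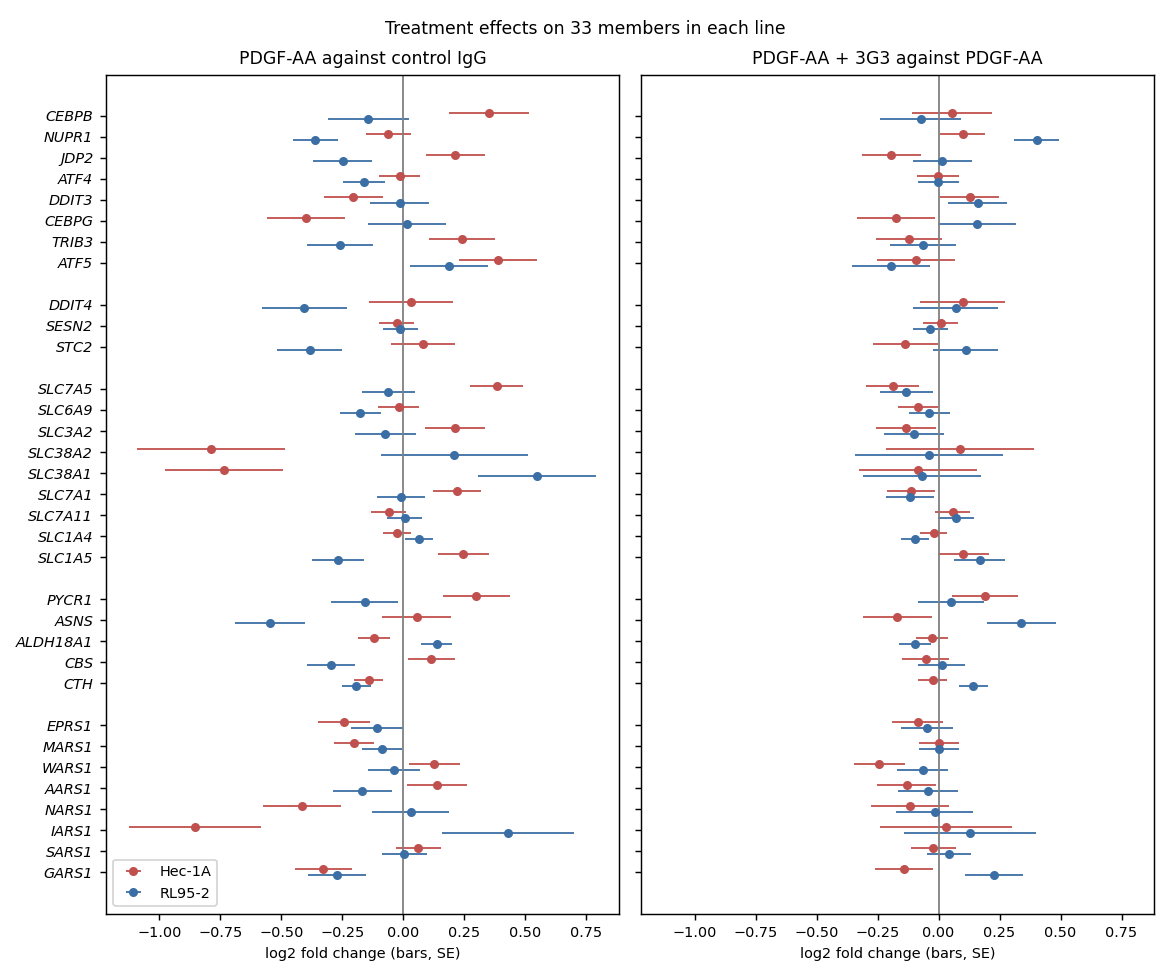
Log2 fold change (x axis) of PDGF-AA against control IgG (left) and of PDGF-AA + 3G3 against PDGF-AA (right) for the 33 genes (y axis, in the order of the line differences), Hec-1A in red and RL95-2 in blue, with bars for the SE. ASNS and NUPR1, named here for this pattern, lie left of 0 on the left panel in RL95-2 (-0.55 and -0.36). They lie right of it on the right panel (0.34 and 0.40), and none passed the adjusted threshold. Both panels use the same PDGF-AA arrays.

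The effect of PDGF-AA was not shown to differ between the lines for any of the genes. In limma's interaction test, on the effect in Hec-1A minus that in RL95-2, 0 of 33 passed (0.00651% of all genes), with 13 at an unadjusted p under 0.05, against 24.7% of all genes. The largest values were -1.28 for SLC38A1 (SE 0.34, limma adjusted p = 0.136) and -1.28 for IARS1 (SE 0.38, limma adjusted p = 0.142). ASNS gave 0.60 (SE 0.20, limma adjusted p = 0.154). For the effect of 3G3 0 of 33 passed (0% of all genes), with 3 at an unadjusted p under 0.05, against 2.61%.

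Replicates of a group varied in a shared way across these genes. In Hec-1A the first principal component of the 33 genes, after subtracting the group means, held 80% of their variance over 9 arrays, and in RL95-2 it held 60.6%. SLC38A1, SLC38A2 and IARS1 had the largest positive loadings in both lines (0.38, 0.49 and 0.35 in Hec-1A, 0.30, 0.26 and 0.44 in RL95-2). CEBPB and DDIT4 had loadings of the opposite sign in both (-0.26 and -0.26, then -0.19 and -0.20). NARS1 and CEBPG had loadings of 0.25 and 0.25 in Hec-1A and of only 0.07 and 0.06 in RL95-2. The sign of a gene's loading was the same in both lines for 26 of the 33. Without Hec-1A control IgG replicate 1 the component held 63% in Hec-1A and 24 of the 33 signs were shared.

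The same arrays stood apart over all probes. The arrays' scores on the component followed those of the first component of all tested probes, with Pearson's r of 0.993 in Hec-1A and 0.962 in RL95-2 (9 arrays each, which share their libraries with the genes). That component held 61.3% and 54.6% of the variance of all probes. The scores had r of 0.526 and 0.592 with the 75th percentile of an array's signal before normalization. The part of signal strength or RNA quality in this variation was not tested.

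**Figure D5:**
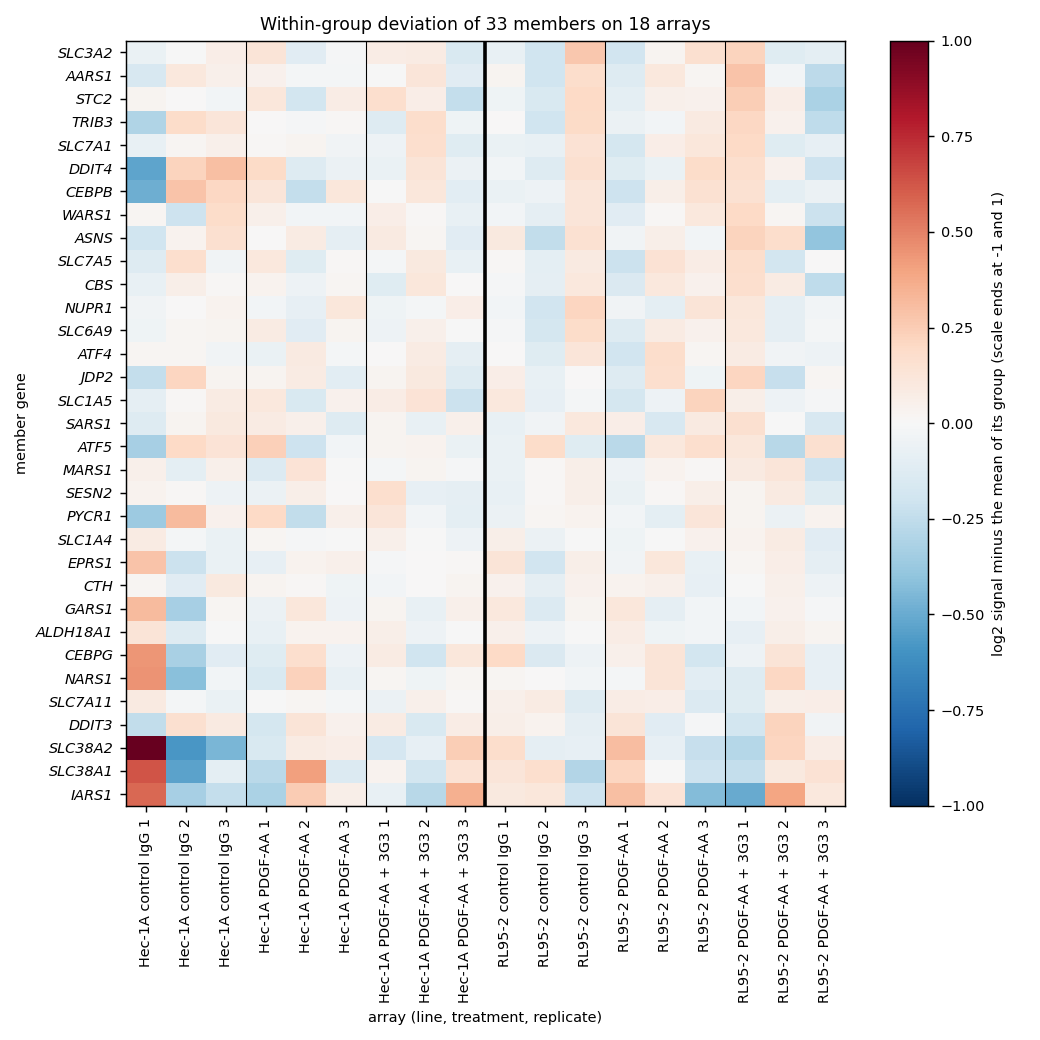
Deviation of each of the 33 genes (rows, ordered by their loading in RL95-2) from the mean of its group on each of the 18 arrays (columns), as a log2 difference with red above and blue below the group mean and a scale that ends at -1 and 1. Hec-1A control IgG replicate 1 is the most strongly coloured column, with its darkest red cells in SLC38A2, SLC38A1 and IARS1.

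Other genes of the pathway were read from 7 lists of genes outside the 36, compared between the lines as averages over the 3 treatments, where 52.8% of all genes were called. Other targets of ATF4 were lower in Hec-1A in 8 of 14 and higher in 5, with a median of -0.49. PHGDH, the entry enzyme of serine synthesis, was at the array median in Hec-1A and at a mean of 12.43 in RL95-2. It was at least 55.4-fold lower in Hec-1A, on the 1 probe that it had. The growth factor GDF15 (-1.77), the folate enzyme MTHFD2 (-1.48) and the stress factor ATF3 (-0.80) followed. Relatives and partners of ATF4 among bZIP factors were higher in 5 and lower in 8 of 21 (median 0.03), with the C/EBP genes CEBPA (-1.81) and CEBPD (-1.47) both lower, as CEBPB was.

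Upstream of ATF4, the eIF2 kinases and the machinery of eIF2 phosphorylation were higher in 8 and lower in 2 of 16 (median 0.16). EIF2AK2, the double-stranded RNA kinase PKR, was 0.84 higher in Hec-1A, and EIF2B4 and EIF2B2, subunits of the exchange factor that eIF2 phosphorylation blocks, were 0.70 and 0.55 higher. EIF2S2, the beta subunit of eIF2, was lower (-0.51).

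Of other cytosolic tRNA synthetases and their scaffold proteins, 3 of 11 were higher and 1 was lower (median 0.15), with HARS1, for histidine, 0.76 higher. By treatment, 10 of these 11 had positive differences under control IgG and 4 under PDGF-AA and under PDGF-AA + 3G3, with medians of 0.17, -0.01 and -0.01. Of all genes, 49.93%, 51.07% and 50.85% had positive differences. The difference between lines in the PDGF-AA effect was called for 0 of the 11 (0.00651% of all genes). Values without Hec-1A control IgG replicate 1 are not given for this list. Mitochondrial synthetases were higher in 7 and lower in 3 of 16 (median 0.11), with VARS2 2.25 higher and YARS2 lower (-0.71). Other amino acid transporters were higher in 3 and lower in 6 of 16 tested (median -0.05). Among them SLC1A3, a glutamate carrier, was near the array median in Hec-1A and differed by -2.98, while SLC16A10, a carrier of aromatic amino acids, and SLC38A10 were 1.10 and 0.91 higher.

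Genes through which amino acids reach mTORC1 were higher in 5 and lower in 5 of 19 (median -0.09). RRAGA, a Rag GTPase that brings mTORC1 to the lysosome, was at a mean of 10.55 in Hec-1A and at the array median in RL95-2, at least 15.2-fold higher. RRAGD and TSC1 were 0.95 and 0.80 higher in Hec-1A, and the arginine sensor CASTOR1 was lower (-0.62).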

How the data were processed

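Total RNA of 18 samples was labelled with biotin and hybridised to Illumina bead arrays. The authors deposited non-normalized signal intensity for each array, from BeadStudio according to the submitters' processing notes (version not given in the sources used here), and a table of processed log2 values. The latter differed by at most 0.0438 from a quantile normalization of the intensity. The intensity table holds no detection p-values. After a floor of 16, needed by 0 values, and a log2 transform, arrays were quantile-normalized. A probe was tested if it exceeded the median of the array on 3 or more arrays (32216 of 47231). Without background subtraction, fold changes of dim probes are understated. Of all probes 30113 carried 1 gene symbol, 8 several and 17110 none. The probe with the highest mean of the processed values stood for its gene.

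The 6 group means were fitted with limma 3.58.1 in R 4.3.3 on all 18 arrays (12 residual and 3.29 prior degrees of freedom), with two-sided moderated tests and Benjamini-Hochberg adjustment over all tested probes of a contrast. For a fold given as "at least", the arrays of a group whose mean did not exceed the array median were raised to it. The model was run on simulated data for the line comparison under control IgG only. That simulation used independent noise for each probe, so it does not cover the variation that replicates shared across probes. Promoters were searched in Python 3.11.15, and matplotlib 3.10.9 drew the figures.

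The members and all lists were chosen with earlier results of these data known, so counts over them are descriptions. All members are named, and from each other list up to 4 genes with the smallest p between the lines. Promoters were taken from RefSeq (GRCh38.p14), and gene names were matched by Entrez ID.

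Alternatives were no normalization, a common array median, normexp with offsets of 16 and 50, the processed values, no filter, a stricter filter (75th percentile), array weights, robust moderation with an intensity trend, each line alone, a replicate block, other probe choices and leaving out each array. The labels state no pairing of arrays, so the replicate numbers were not taken as pairs in the main model. Deviations from the group means had correlations from -0.70 to 0.33 between arrays with the same number. These cannot show whether such arrays were handled together.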

Additional observations from a re-analysis of the deposited data

How the results depend on the processing

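Of 987 comparisons of a member's averaged line difference with an alternative, 950 kept the call, 35 lost the call (all ALDH18A1, AARS1 or IARS1), 2 gained it (CBS, NARS1) and 0 reversed among called values. Of the 950, 1 changed sign (CEBPG, called in neither). With normexp at offset 16, NUPR1 differed by -2.65 and SLC6A9 by -2.56. Of 492 counts of called members, 18 moved by over 1.5 times. Without normalization 11 members, not 18, were lower in Hec-1A under control IgG, and 3 were higher under PDGF-AA and 3 with 3G3 added. The median of all probes then shifted by 0.11 under control IgG, and scaling to a common median gave 3 higher with 3G3 added. Array weights called 1 higher and 7 lower for PDGF-AA against control IgG in Hec-1A, 2 and 8 for PDGF-AA + 3G3 against control IgG, and 2 and 2 for the difference between lines in the PDGF-AA effect, with 14.3%, 11.5% and 7.98% of all probes called. A filter at the 75th percentile called 1 higher and 2 lower (PYCR1, CEBPG and GARS1) of 30 in the second, with 6.95% of all probes called. Leaving out each array gave ranges of 0 to 2 higher and 0 to 8 lower in the first, 0 to 2 and 0 to 9 in the second, and 0 to 1 and 0 to 4 in the third, each highest without Hec-1A control IgG replicate 2. The cause was not tested. For the fits without normalization, with a common median or with an array left out, no share of all genes is set beside the counts here. Those counts therefore describe the list only. Of the calls within a treatment, 20 of 24 under control IgG, 22 of 27 under PDGF-AA and 18 of 25 with 3G3 added held in every fit that left out an array.

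Arrays with the same replicate number did not deviate together, which cannot show whether they were handled together. With a replicate block 7 members were higher and 21 lower on average between the lines, 15 were lower under control IgG, and 0 were called between treatments. No share of all genes is set beside these counts, so they describe the list only. The block also ended the AARS1 and IARS1 calls. Dim probes limit SESN2, SLC1A4, SLC7A11 and CHAC1, and 3 arrays a group limit the treatment comparisons.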
